A study of Mus musculus with 26 samples.

Results

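The BCL2 family set out here holds 9 genes of the 21761 in each of the 2 deposited count tables: Bcl2, Bcl2l1, Mcl1, Bax, Bak1, Bcl2l11, Bbc3, Pmaip1 and Bid. They were chosen by symbol as the core genes of mitochondrial survival and death, with earlier results of these data known but by no threshold on them, and all 9 were found in both tables and passed the count filter in every comparison. The study behind the tables covers 26 RNA-seq libraries of mouse CD4+ T cells and deals with vitamin C and the TET dioxygenases, enzymes that oxidise methylated cytosine. All mice were C57BL/6, and the cells came from spleen and lymph nodes. The first table holds 20 libraries. Of these, 12 are of cells from mice aged 5 to 6 weeks with the Foxp3-eGFP reporter, in which eGFP marks cells that express Foxp3, the defining transcription factor of regulatory T (Treg) cells. They comprise naive cells (CD4+, eGFP-, CD25-, CD62L high, CD44 low), Th0 cells (anti-CD3 and anti-CD28, no TGFb), and the cultures that make induced Treg (iTreg) cells, with TGFb only, TGFb with vitamin C, TGFb with retinoic acid, and TGFb with both, with n = 2 libraries in each of these 6 groups. The other 8 were Treg cells (CD4+, eGFP+) taken directly from mice of 3 weeks that carried floxed alleles of Tet2 and Tet3 and the Foxp3-eGFP reporter. In 4 of them the CD4-Cre transgene was present, which acts in T cells from the thymic stage at which Cd4 is switched on (Tet2/3-deficient), and in 4 it was absent (control). The second table holds iTreg cells made with TGFb from Foxp3-eGFP mice of 12 to 14 weeks and sorted as Foxp3+ at day 6 (n = 3), and cells of such cultures that were Foxp3- when sorted on day 6 after restimulation through CD3 and CD28 (n = 3).

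Proteins of this family decide whether the outer membrane of the mitochondrion stays sealed. Guard proteins (BCL2, BCL-XL from Bcl2l1, MCL1) hold the pore-forming effectors BAX and BAK in check, while BH3-only proteins (BIM from Bcl2l11, PUMA from Bbc3, NOXA from Pmaip1, and BID) occupy the guards or activate the effectors. Once the membrane is open, cytochrome c leaves it and caspases are switched on through APAF1. In T cells MCL1 and BCL2 carry resting survival, BCL-XL is induced on activation, BIM removes self-reactive and cytokine-deprived cells, and Treg cells are known to need MCL1, with BIM acting against their survival.

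Total counts ran from 9647669 to 17672302 per library in the first table and from 11293704 to 17219805 in the second. Levels are given as CPM, read counts relative to the library total, on totals scaled with TMM factors of 0.921 to 1.05. Levels of different genes are compared only as FPKM, which also divides by exon length. No label names the animal or culture behind a replicate, so a p-value measures only the spread between libraries, which may be technical. Of the targeted genes, Tet3 ran from 92.2 to 111 CPM with CD4-Cre and from 126 to 168 CPM in controls, while Tet2 overlapped (11.6 to 15.8 CPM, controls 9.98 to 15.4). The counts span all exons, so Tet2 does not check a deletion of part of the gene. Foxp3 was at 516 to 726 CPM in the 8 ex vivo Treg libraries, at 550 to 984 CPM in the 8 TGFb cultures, and at 16.1 to 28.4 CPM in Th0 and naive libraries. In the second table it was at 314 to 349 CPM in the day 6 and 13.2 to 17.3 CPM in the restimulated libraries. The ex vivo Treg libraries stood apart in sex-linked RNA. All 8 had 939 to 1781 reads of the Y-linked gene Ddx3y and at most 2 of Xist, whereas the other 18 libraries had 0 of Ddx3y and at least 620 of Xist. The ex vivo columns carry numbers S1 to S8 that match their group but no single sample.

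Per length, Mcl1 was the most abundant of the 9 RNAs in every group of the first table except Th0. Its FPKM was 195 ± 12.1 (SD, n = 2) in naive cells, 84.4 ± 1.81 in Th0 cells, 112 ± 9.37 in TGFb cultures and 182 ± 16.2 (n = 4) in control Treg cells. That was 59.7% of the summed FPKM of the 9 genes in naive cells, 22.9% in Th0 cells and 44.7% in control Treg cells. In Th0 cells Bax stood level with it, at 89.3 ± 7.54 FPKM or 24.3% of the sum. In the day 6 iTreg cells of the second table Bax was first, at 106 ± 5.27 FPKM against 86.8 ± 0.173 for Mcl1. The BH3-only genes stood mostly at the low end, with Bcl2l1 below Bcl2l11 in naive cells (5.88 ± 0.279 and 10.2 ± 0.317 FPKM). Pmaip1 was at 0.384 ± 0.101 FPKM in naive cells, and the highest FPKM of any BH3-only gene in the first table was that of Bcl2l11 in Tet2/3-deficient Treg cells, 36.8 ± 1.44. The sum itself ran from 326 ± 15.1 FPKM in naive to 433 ± 17.5 in Tet2/3-deficient cells in the first table. FPKM carries no TMM scaling. The TMM factors were 0.921 and 0.926 in naive and 1.03 to 1.05 in Tet2/3-deficient libraries, so on scaled totals these 2 sums would lie closer together. These values compare RNA per length, and counts per gene cannot separate splice forms such as the long and short forms of Bcl2l1 or Mcl1. In bulk RNA, a change in every cell and a change in the share of cells that express a gene cannot be told apart.

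**Figure D1:**
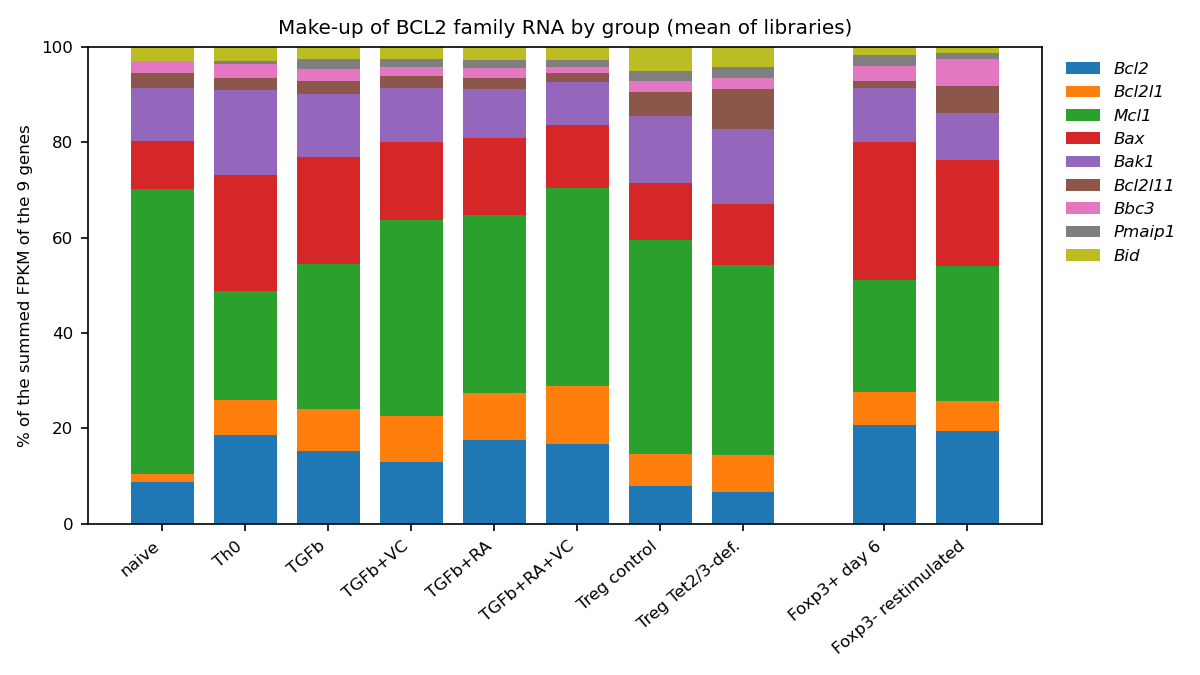
Make-up of the summed FPKM of the 9 genes in each group, as the mean percentage over libraries (vertical axis, percent). Mcl1 takes 59.7% in naive and 22.9% in Th0 cells, and Bcl2l11 grows from 5.03% in control to 8.51% in Tet2/3-deficient Treg cells and from 1.49% to 5.72% between the 2 groups of the second table.

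The promoters are shown for the genes whose changes are described most fully below, Bcl2l11 and Bax, each as the 250 bases before an annotated RNA start (RefSeq, build GRCm38.p6), and for Bbc3 as 30 bases around one match. Coordinates are of that build and not of mm9, to which the authors aligned. RefSeq windows of 8 of the 9 genes were used, 13 windows in all. No window was kept for Pmaip1, which is named only. In the Bcl2l11 window (chr2:128125788-128126037, + strand) the capitals mark GTAAACA, the core letters bound by FOXO factors, 227 bases before the start. In the Bax window (chr7:45466899-45467148, - strand) they mark a p53 half-site 201 bases and the E-box CACGTG 9 bases before the start. In Bbc3 (chr7:16310083-16310112, + strand) they mark the FOXO letters read on the other strand, 167 bases before the second of 3 annotated starts.
Bcl2l11: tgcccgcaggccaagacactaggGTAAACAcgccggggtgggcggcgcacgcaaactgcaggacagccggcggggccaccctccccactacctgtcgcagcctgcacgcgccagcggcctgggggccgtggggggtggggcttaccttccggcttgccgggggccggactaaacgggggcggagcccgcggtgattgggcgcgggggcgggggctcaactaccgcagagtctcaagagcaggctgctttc
Bax: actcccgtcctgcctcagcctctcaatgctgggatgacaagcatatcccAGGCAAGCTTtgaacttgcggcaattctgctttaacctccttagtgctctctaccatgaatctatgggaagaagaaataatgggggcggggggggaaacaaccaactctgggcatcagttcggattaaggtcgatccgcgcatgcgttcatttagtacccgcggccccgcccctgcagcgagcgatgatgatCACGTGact
Bbc3: tctggcgggttTGTTTACaaacaatggggt
Both strands were searched in all windows. The FOXO letters were in 1 of the windows of Bcl2l11 and 1 of those of Bbc3, that is in 2 of 13 windows, against 3.17% of all 32851 promoter windows of this length. The p53 half-site was in 1 of 13 windows against 7.13% of all, and the E-box in 2 of 13 (Bax and Bbc3) against 6.02%. The GC box GGGCGG was in 9 of 13 windows, of 6 genes, against 32.7% of all windows. TTTNGCGC, an E2F motif, was in 1 window, of Bcl2l1, against 1.13%. The STAT letters TTCNNNGAA (7.02% of all windows), the AP-1 letters TGANTCA (6.75%) and the CRE TGACGTCA (1.55%) were in 0 of 13. A match describes letters in these windows and is no evidence of binding.

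**Figure D2:**
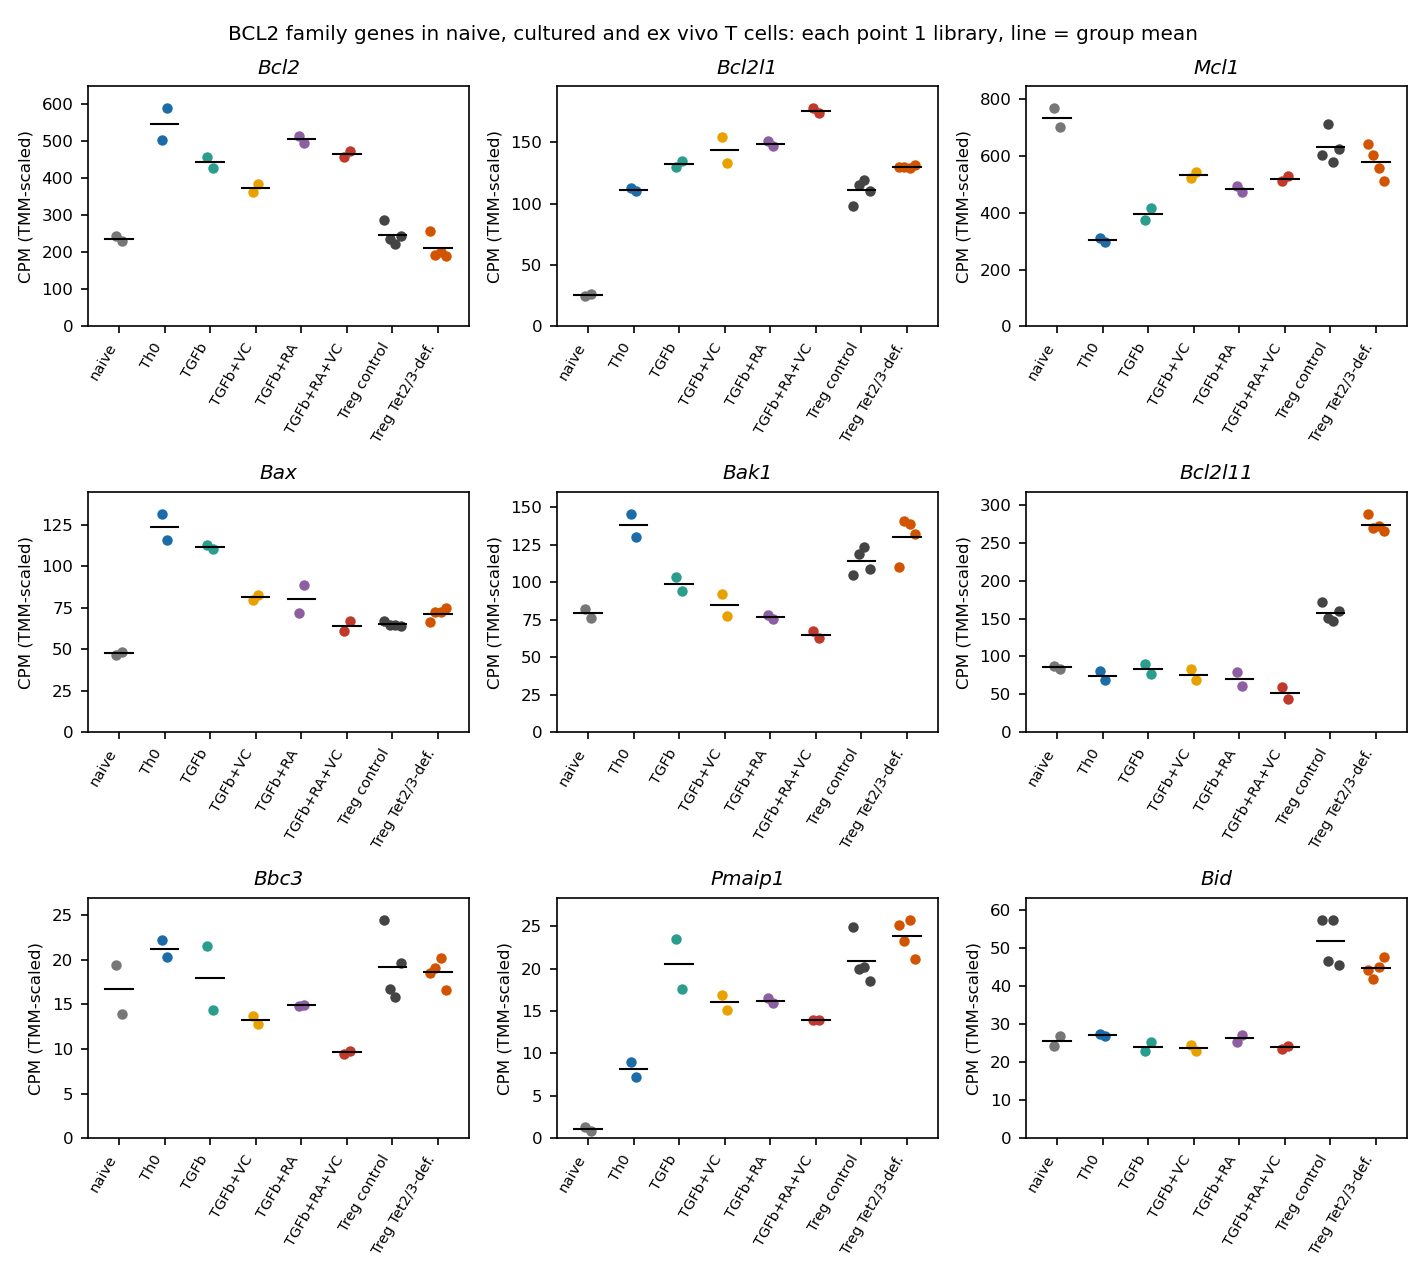
Level of each gene in every library of the first table (vertical axis, CPM on TMM-scaled totals, from 0), by group, with a line at the group mean. Bcl2l11 and Bid are highest in both ex vivo Treg groups, Bcl2l1 and Pmaip1 are lowest in naive cells, and Bax and Bak1 fall step by step in mean from Th0 to the culture with TGFb, retinoic acid and vitamin C.

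The guard genes ordered the groups in different ways. Bcl2, the founding guard, had its highest mean in Th0 cells (547 ± 61.4 CPM), then in TGFb with retinoic acid (505 ± 12.6), with both supplements (466 ± 11.7), with TGFb alone (443 ± 22.3) and with vitamin C (374 ± 16.4). Control Treg (248 ± 27.9, n = 4), naive (237 ± 8.63) and Tet2/3-deficient Treg cells (211 ± 32.2, n = 4) followed, and those 3 overlapped. Bcl2l1, the gene of the activation-induced guard BCL-XL, ran from 25.7 ± 1.13 CPM in naive cells to 176 ± 3.23 in the culture with both supplements, 6.83-fold between the lowest and highest means. No library of that culture overlapped with the next group, TGFb with retinoic acid (149 ± 3.07 CPM). Mcl1, the short-lived guard, ran the other way, with its highest mean in naive (735 ± 48.3 CPM) and its lowest in Th0 cells (304 ± 8.78). Between them stood control Treg (630 ± 58.4), Tet2/3-deficient Treg (578 ± 57.3), the cultures with vitamin C (532 ± 15.5), with both (520 ± 11.5) and with retinoic acid (484 ± 13.2), and TGFb alone (397 ± 29.5). The 5 highest groups overlapped each with its neighbour, and the 3 lowest did not.

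The effectors Bax and Bak1 were both highest in Th0 cells. Bax ran from 124 ± 11.4 CPM there and 112 ± 1.71 with TGFb to 47.8 ± 1.25 in naive cells. The groups between, from TGFb with vitamin C (81.3 ± 1.88) to the culture with both supplements (64.1 ± 4.35), overlapped with their neighbours. Bak1 was at 138 ± 10.8 CPM in Th0, 131 ± 14.2 in Tet2/3-deficient and 114 ± 8.54 in control Treg cells, and the Th0 and Tet2/3-deficient libraries overlapped. Its lowest mean was that of the culture with both supplements (65.1 ± 3.03), under naive cells (79.5 ± 4.25).

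The BH3-only genes ordered the groups in different ways too. Bcl2l11, whose product BIM binds all guards, and Bid, whose product links death receptors to mitochondria, were highest in the ex vivo Treg cells. Bcl2l11 was at 274 ± 9.83 CPM in Tet2/3-deficient and 157 ± 10.8 in control Treg cells, with no overlap, and at 51.8 ± 11.2 to 85.5 ± 2.98 CPM in the other 6 groups. Bid was at 51.7 ± 6.53 CPM in control and 44.7 ± 2.43 in Tet2/3-deficient Treg cells, which overlapped, and at 23.8 ± 1.06 to 27.2 ± 0.303 CPM elsewhere, where each group overlapped with its neighbour. Pmaip1, the gene of the MCL1-binding protein NOXA, was at 1.1 ± 0.295 CPM (8 and 12 reads) in naive and 8.14 ± 1.26 in Th0 cells, and at 14 to 23.8 CPM in the other 6 group means. Bbc3, the gene of the p53 target PUMA, had group means from 14.9 ± 0.0203 to 21.3 ± 1.34 CPM in 6 groups, each overlapping with its neighbour. The culture with vitamin C (13.3 ± 0.645 CPM) and that with both supplements (9.67 ± 0.249 CPM) stood below them without overlap with the next.

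Activation of naive cells (Th0 against naive, n = 2 and 2) changed 6 of the 9 genes, 5 higher and 1 lower, by the edgeR quasi-likelihood test at a Benjamini-Hochberg adjusted p under 0.05, where 72% of the 11287 genes tested passed, 35.7% higher and 36.4% lower. Pmaip1 was at 1.31 and 0.895 CPM in naive and 9.03 and 7.25 CPM in Th0 libraries, and rose 7.47-fold (log2 fold change ± SE 2.90 ± 0.28, edgeR adjusted p = 2.25e-07). Bcl2l1 was at 24.9 and 26.5 CPM in naive and 112 and 111 CPM in Th0 libraries, a rise of 4.44-fold (2.15 ± 0.10, adjusted p = 3.44e-11). Bax went from 46.9 and 48.7 to 132 and 116 CPM, or 2.65-fold (1.41 ± 0.11). Thus a guard, an effector and a guard antagonist rose side by side. In all 9 genes the groups did not overlap, as in 86.5% of all genes tested. Bcl2 went from 243 and 230 to 503 and 590 CPM (2.37-fold, 1.25 ± 0.09), and Bak1 from 82.5 and 76.4 to 146 and 130 CPM (1.78-fold, 0.83 ± 0.10). Mcl1 alone fell, from 770 and 701 to 311 and 298 CPM, 2.36-fold (-1.24 ± 0.08, adjusted p = 2.64e-09). Bcl2l11 (-0.16 ± 0.15), Bbc3 (0.38 ± 0.18, adjusted p = 0.0704) and Bid (0.13 ± 0.11) did not pass. Bbc3 passed without naive replicate 1 (0.64, adjusted p = 0.0177), with no count filter (0.0432), in limma (0.0486) and with only the 4 libraries in the fit (0.0336).

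The rest of the pathway moved in both directions on activation. Of 14 genes of the apoptosome and caspases 7 rose and 3 fell (median log2 fold change 0.28, -0.01 over all genes tested), with the cytochrome c gene Cycs (0.99 ± 0.11) higher. Of 11 tested genes among the other BCL2 family members 4 rose and 4 fell (median -0.11), including Bnip3, a mitophagy gene (3.87 ± 0.43), and Bmf, another BH3-only gene (-2.07 ± 0.35). Among 6 inhibitor of apoptosis genes 2 rose and 3 fell, with Birc5, the survivin gene of dividing cells, up (6.83 ± 0.20) and Birc2 down (-1.53 ± 0.11). Of 12 tested upstream regulators 4 rose and 7 fell, with E2f1 up (3.83 ± 0.17) and Foxo1, which encodes a FOXO factor, down (-2.16 ± 0.16). Of 6 survival receptor genes 3 rose and 2 fell. Il7r was lower (-4.69 ± 0.20), and the genes of the IL-2 receptor chains Il2ra (8.95 ± 0.14) and Il2rb (3.36 ± 0.11) were higher. Of 11 tested p53 targets outside the family 7 rose and 2 fell, with the cell cycle inhibitor gene Cdkn1a up (7.98 ± 0.38). In the death receptor list of 10 genes 4 rose and 4 fell.

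TGFb during activation (TGFb against Th0, n = 2 and 2) changed 5 of the 9 genes, 3 higher and 2 lower, where 26.1% of all genes tested passed, 14.5% higher and 11.6% lower. Pmaip1 rose from 9.03 and 7.25 CPM in Th0 to 23.5 and 17.6 CPM in TGFb libraries, 2.53-fold (1.34 ± 0.17, edgeR adjusted p = 5.33e-05). Bak1 fell from 146 and 130 to 103 and 94.5 CPM (-0.48 ± 0.10, adjusted p = 0.00262). These and 5 more of the 9 genes did not overlap between the groups, and neither did 67.5% of all genes tested. Mcl1 rose from 311 and 298 to 376 and 418 CPM (0.38 ± 0.08, adjusted p = 0.00321). Bcl2 fell from 503 and 590 to 459 and 427 CPM (-0.30 ± 0.08, adjusted p = 0.0163), and Bcl2l1 rose from 112 and 111 to 130 and 135 CPM (0.25 ± 0.09, adjusted p = 0.0438). The last 3 calls were lost in some fits with 1 library left out, in which the remaining library's spread is taken from the other groups. The log2 fold change then ran from 0.30 to 0.46 for Mcl1, from -0.41 to -0.19 for Bcl2 and from 0.22 to 0.28 for Bcl2l1. Without TGFb replicate 2 the adjusted p was 0.0505 for Mcl1, 0.116 for Bcl2 and 0.197 for Bcl2l1, without Th0 replicate 2 it was 0.181 for Bcl2 and 0.156 for Bcl2l1, and for Bcl2l1 it was 0.119 without TGFb replicate 1 and 0.137 without Th0 replicate 1. With all 20 libraries in the fit Bcl2 (0.0981) and Bcl2l1 (0.0509) did not pass, nor did Bcl2 in limma (0.0525) or Bcl2l1 in DESeq2 (0.0754) or with no count filter (0.0605). Of the list of survival cytokine receptors 3 of 6 rose and 1 fell (median 0.64), led by Il7r (1.46 ± 0.20), Il2rb (1.21 ± 0.10) and Il2ra (1.11 ± 0.09). The death ligand gene Tnfsf10, which encodes TRAIL, rose (2.37 ± 0.13) with 2 others of its list of 10, while 1 of 14 apoptosome and caspase genes changed, Dffb (-0.63 ± 0.16). Inhibitor of apoptosis genes rose in 3 of 6 cases and fell in 1, p53 targets rose in 5 of 11, upstream regulators rose in 2 and fell in 5 of 12, and the other family members rose in 1 and fell in 2 of 11.

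The supplements were compared with the same 2 TGFb libraries, so the 3 comparisons below share their controls and are not independent of each other. Vitamin C (n = 2) changed 2 of the 9 genes, 1 higher and 1 lower, where 16.8% of all genes tested passed, 8.84% higher and 7.99% lower. Mcl1 was at 376 and 418 CPM with TGFb alone and 521 and 543 CPM with vitamin C, and rose 1.34-fold (0.42 ± 0.08, edgeR adjusted p = 0.00298). Bax was at 113 and 111 CPM without and 80 and 82.6 CPM with vitamin C, and fell 1.38-fold (-0.46 ± 0.10, adjusted p = 0.00853). These and 4 more of the 9 genes did not overlap between the groups, and neither did 62.3% of all genes tested. Bcl2 did not pass, at 459 and 427 against 363 and 386 CPM (-0.25 ± 0.08, adjusted p = 0.057). Without TGFb replicate 1 neither call held (adjusted p = 0.0502 for Mcl1 and 0.0549 for Bax), and Bax did not pass without the vitamin C replicate 1 either (0.0598). Without TGFb replicate 2 Bbc3 passed as well (-0.70, adjusted p = 0.0337), and Bcl2 passed with no count filter (0.048) or with only the 4 libraries in the fit (0.0432). With the replicate number as a block 5 genes passed, Bcl2 (0.0247), Bak1 (0.0408) and Bbc3 (0.0486) in addition. Beside them, Birc3 rose (0.96 ± 0.12) and Birc5 fell (-0.60 ± 0.13), with 2 up and 1 down of the 6 inhibitor of apoptosis genes. Tnfsf10 rose (1.18 ± 0.11) and 1 other gene of its list of 10 fell. Bcl2l2, the gene of the guard BCL-W, rose (0.71 ± 0.15), the 1 of 11 other family members that changed. Of the receptors 3 of 6 rose by 0.42 or less, of the apoptosome 1 of 14 fell, of the p53 targets 1 rose and 1 fell of 11, and of the upstream regulators 1 rose and 3 fell of 12.

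Retinoic acid (n = 2) changed 3 of the 9 genes, 1 higher and 2 lower, where 16.5% of all genes passed, 7.19% higher and 9.29% lower. Mcl1 was at 493 and 475 CPM with it, above both TGFb libraries (0.30 ± 0.08, edgeR adjusted p = 0.0165). Bax was at 72.2 and 88.9 CPM and Bak1 at 78.1 and 75.7 CPM, both below the TGFb libraries (113 and 111, and 103 and 94.5 CPM), with falls of -0.46 ± 0.11 (adjusted p = 0.0079) and -0.35 ± 0.10 (adjusted p = 0.0277). In all, 7 of the 9 genes did not overlap between the groups, and neither did 55.9% of all genes tested. All 3 calls were lost without TGFb replicate 1 (0.216, 0.056 and 0.19 for Mcl1, Bax and Bak1) and without the retinoic acid replicate 1 (0.0802, 0.0834 and 0.0693), and that of Bak1 without its replicate 2 (0.0678). The calls of Mcl1 and Bak1 were also lost with only the 4 libraries compared in the fit (0.0854 and 0.0604) and with all 20 (0.0803 and 0.0533). The p53 targets Plk2 (-2.19 ± 0.36) and Cdkn1a (-1.78 ± 0.16) fell with 2 more of their list of 11 tested, median -0.24 against 0.02 over all genes. Of 14 apoptosome and caspase genes 1 fell and none passed as higher. Of 11 other family members 2 fell, Bnip3 (-1.39 ± 0.35) and Bik (-1.06 ± 0.33), and none of the 11 passed as higher. Among inhibitors of apoptosis 1 of 6 fell, in the death receptor list 1 of 10 and among upstream regulators 1 of 12, while 1 of 6 receptors rose, Il4ra (0.49 ± 0.07).

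With both supplements (n = 2) 7 of the 9 genes changed, 2 higher and 5 lower, where 37.5% of all genes tested passed, 18.3% higher and 19.2% lower. Of the 3 guards 2 were higher. Bcl2l1 was at 178 and 174 CPM against 130 and 135 CPM with TGFb alone (1.33-fold, 0.41 ± 0.08, edgeR adjusted p = 0.0015), and Mcl1 at 512 and 528 against 376 and 418 CPM (1.31-fold, 0.39 ± 0.08, adjusted p = 0.00136). The effectors were lower. Bax was at 61.1 and 67.2 against 113 and 111 CPM (1.73-fold, -0.79 ± 0.11, adjusted p = 4.17e-05), and Bak1 at 67.3 and 63 against 103 and 94.5 CPM (1.51-fold, -0.60 ± 0.10, adjusted p = 0.000319). Of the BH3-only genes 3 of 4 were lower. Bbc3 was at 9.49 and 9.84 against 21.5 and 14.4 CPM (1.85-fold, -0.89 ± 0.19, adjusted p = 0.00198). Bcl2l11 was at 59.7 and 43.9 against 90.7 and 77.4 CPM (1.62-fold, -0.69 ± 0.16, adjusted p = 0.0034), and Pmaip1 at 14 and 14 against 23.5 and 17.6 CPM (1.47-fold, -0.55 ± 0.16, adjusted p = 0.012). These 7 of 9 genes did not overlap between the groups, and neither did 71% of all genes tested. Bcl2 (0.08 ± 0.08) and Bid did not pass. Of the 7 calls that of Pmaip1 was lost without TGFb replicate 1 (adjusted p = 0.19) and without replicate 2 of the culture with both (0.0509), and the others held without any single library. Without TGFb replicate 1 the log2 fold change of Bbc3 was -0.57, at an adjusted p of 0.0499. The median log2 fold change of the 9 genes was -0.55, against 0.01 over all genes tested. The 2 CD8 genes summed to 38.9 to 41.2 CPM with both supplements and to 13.5 to 15.4 CPM with TGFb alone, and the part of CD8 T cells in these differences was not tested.

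In the wider pathway 5 of 11 tested p53 targets fell and 1 rose in the same comparison (median -0.39), with Plk2 (-2.60 ± 0.37), Cdkn1a (-2.43 ± 0.17) and Phlda3 (-1.71 ± 0.23) lower. Apoptosome and caspase genes fell in 3 of 14 cases, among them Dffb (-0.48 ± 0.17) and Cycs (-0.46 ± 0.10). Upstream regulators moved both ways, 3 up and 3 down of 12, among them Foxo3, another FOXO gene, higher (0.56 ± 0.12) and E2f1 lower (-0.63 ± 0.13). Il4ra (0.72 ± 0.07) and Il2ra (0.36 ± 0.08) rose with 1 more of the 6 receptors, and Il7r fell (-0.71 ± 0.19). Birc5 fell (-1.14 ± 0.13) and Birc3 rose (0.78 ± 0.12), 2 down and 2 up of 6. Of the death receptor list 2 rose and 1 fell of 10, and of the other family members 2 rose and 1 fell of 11.

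**Figure D3:**
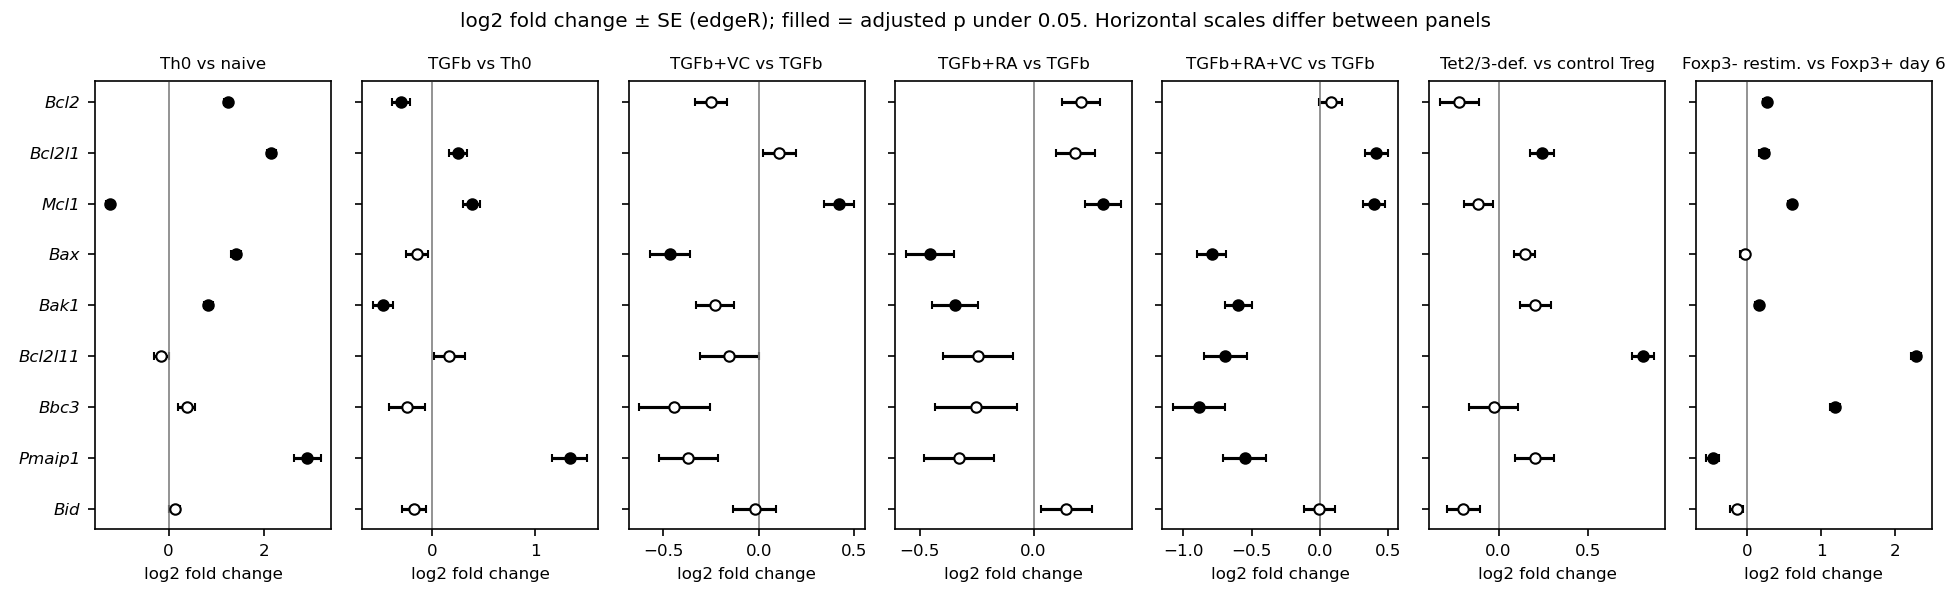
Log2 fold change ± SE of each gene (horizontal axis, log2, with a scale of its own in each panel) in 7 comparisons, edgeR. Filled points passed an adjusted p of 0.05. With both supplements the guards Bcl2l1 and Mcl1 lie at 0.41 and 0.39 and 5 death genes lie between -0.89 and -0.55.

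Set directly against each other, the 2 supplements separated on Bcl2. It was at 363 and 386 CPM with vitamin C and 514 and 496 CPM with retinoic acid, 1.37-fold lower with vitamin C (-0.46 ± 0.08, edgeR adjusted p = 0.0015), the 1 of 9 genes that passed where 16.1% of all genes did, 9.22% higher and 6.91% lower. Adding retinoic acid to vitamin C changed 4 of 9 genes, 2 higher and 2 lower, where 15.1% of all passed, 5.81% higher and 9.3% lower. Bcl2 (0.33 ± 0.08, adjusted p = 0.0154) and Bcl2l1 (0.30 ± 0.08, adjusted p = 0.023) were higher, and Bcl2l11 (-0.54 ± 0.16, adjusted p = 0.0325) and Bak1 (-0.37 ± 0.10, adjusted p = 0.0214) lower. None of these 4 calls held without replicate 2 of the culture with both (0.106, 0.0862, 0.255 and 0.145 in that order). Bcl2, Bcl2l1 and Bak1 were also lost without its replicate 1 (0.05, 0.125 and 0.05), Bcl2, Bcl2l11 and Bak1 without the vitamin C replicate 1 (0.168, 0.25 and 0.273), and Bcl2l1 without the vitamin C replicate 2 (0.235). Bcl2 did not pass with all 20 libraries in the fit (0.137), nor Bcl2l1 with only the 4 compared (0.06), while Bax (-0.33 ± 0.11, 0.0506) passed with RLE factors, with no count filter and with fewer or more groups in the fit (0.0257 to 0.0437), and with a replicate block (0.0226). Adding vitamin C to retinoic acid changed 0 of 9 genes in edgeR, DESeq2 or limma (5 at an unadjusted p under 0.05), where 7.54% of all genes passed, 4.31% higher and 3.22% lower. The nearest were Bbc3 (-0.63 ± 0.19, adjusted p = 0.0623), at 9.49 and 9.84 against 14.9 and 14.9 CPM, and Bax (-0.34 ± 0.11, adjusted p = 0.071), at 61.1 and 67.2 against 72.2 and 88.9 CPM. Bax passed without the retinoic acid replicate 1 (adjusted p = 0.0145), and Bcl2l11 (-0.45 ± 0.16 with all libraries) without replicate 1 of the culture with both (0.0287). With no count filter Bax (0.0435) and Bbc3 (0.0226) passed. Same-numbered libraries of these 2 cultures deviated together (r = 0.379), and with the replicate number as a block Bax (0.0312), Bcl2l11 (0.00302) and Bbc3 (0.0167) passed, 3 of 9 genes. All 9 genes were without overlap between these 2 cultures, as were 46.2% of all genes tested. For both supplements against vitamin C 7 of 9 were without overlap (55.2% of all), and for vitamin C against retinoic acid 4 of 9 (52.4%). The test of whether the vitamin C effect differed with retinoic acid passed for 0 of 9 genes in edgeR, DESeq2 or limma (1 at an unadjusted p under 0.05), and for 0.0177% of all genes. Its value farthest from 0 by SE was that of Mcl1 (-0.33 ± 0.11, adjusted p = 0.729). Of the 11 tested p53 targets outside the family 5 were lower with both supplements than with vitamin C and 2 than with retinoic acid, and 0 were higher in either comparison in edgeR.

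In Treg cells with floxed Tet2 and Tet3 and CD4-Cre (Tet2/3-deficient by label, n = 4) Bcl2l11 was higher in every library than in controls without Cre (n = 4). The Tet2/3-deficient libraries S5 to S8 held it at 288, 269, 272 and 266 CPM and the controls S1 to S4 at 171, 151, 147 and 160 CPM, 1.75-fold higher (0.81 ± 0.06, edgeR adjusted p = 5.07e-06). Bcl2l1 was at 130, 130, 129 and 131 against 98.4, 115, 119 and 111 CPM and rose 1.18-fold (0.24 ± 0.07, adjusted p = 0.0144). The lowest Tet2/3-deficient library was above the highest control in these 2 of 9 genes, and 33.5% of all genes tested did not overlap. These were the 2 of 9 genes that passed, where 32.5% of all 11679 genes tested did, 16.7% higher and 15.8% lower, and both calls held without any single library. Bcl2 was at 259, 193, 202 and 190 against 287, 237, 222 and 244 CPM (-0.22 ± 0.11, adjusted p = 0.145). Bak1 (0.21 ± 0.08), Bax (0.15 ± 0.06), Pmaip1 (0.20 ± 0.11), Bid (-0.20 ± 0.09), Mcl1 (-0.11 ± 0.08) and Bbc3 (-0.03 ± 0.14) did not pass either.

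One Tet2/3-deficient library, S5, lay nearer to the controls in several of the genes that did not pass. It held Bcl2 at 259 CPM against 190 to 202 in S6 to S8, Bak1 at 110 against 132 to 141 and Bax at 66.4 against 72.3 to 74.8. Without S5 Bcl2 (-0.33, edgeR adjusted p = 0.0154), Bak1 (0.28, adjusted p = 0.0152) and Bax (0.18, adjusted p = 0.0481) passed, 5 of 9 genes in all. Calls over all genes tested also moved with a library left out, to between 2831 and 4141 from 3800. The higher count is therefore not read as a result about these 9 genes. With limma, or with library totals and no scaling factor (added after seeing the data), Bak1 and Bax passed as well (adjusted p 0.0229 to 0.0467). Without control S1, or without S1 and S3, Pmaip1 passed (0.30, adjusted p = 0.0323, and 0.32, adjusted p = 0.0409). Leaving out both was chosen after seeing the data, because S1 and S3 had the highest B cell marker sums (91.8 and 110 CPM over 5 genes, against 45.6 and 48.8 in S2 and S4). The 6 myeloid markers summed to 39.3 CPM in S5 and to 87.8 to 117 in S6 to S8, against 33.1 to 41.9 in control libraries, and all 6 were found in each library. Bcl2l11 was at 288 CPM in S5 and at 269, 272 and 266 CPM in S6 to S8, and its relation to these sums was not tested. The 4 NK cell markers summed to 15 to 33.8 CPM against 4.41 to 8.94 (0 or 1 of them at 0 in a library), and the 2 CD8 genes to 3.23 to 5.07 against 24.8 to 28.1 CPM. The part of these cells in the differences was not tested.

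Per length, Bcl2l11 RNA overtook Bcl2 RNA in the Tet2/3-deficient cells. The ratio of Bcl2 to Bcl2l11 FPKM was 0.9, 0.719, 0.743 and 0.717 in S5 to S8 and 1.68, 1.57, 1.52 and 1.53 in S1 to S4. All 4 Tet2/3-deficient libraries were below 1 and all 4 controls above 1.5. It was 2.78 and 2.77 in naive cells, and its group means were 7.42 ± 1.62 in Th0, 5.3 ± 0.328 with TGFb, 5.01 ± 0.912 with vitamin C, 7.33 ± 1.14 with retinoic acid and 9.26 ± 2.22 with both. These ratios describe RNA and not protein, and no test was made on them.

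**Figure D4:**
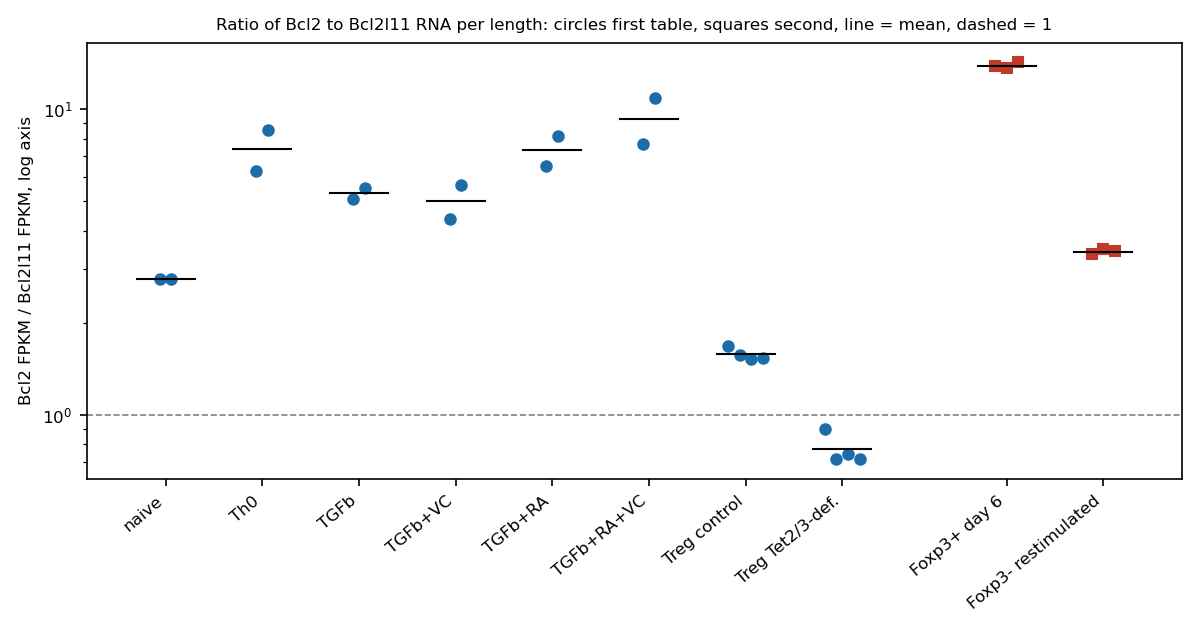
Ratio of Bcl2 to Bcl2l11 FPKM in each library (vertical log axis, dashed line at 1), by group, with a line at the mean. Circles are the first table and squares the second. The 4 Tet2/3-deficient libraries lie between 0.717 and 0.9, the controls between 1.52 and 1.68.

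Other pathway genes changed in the Tet2/3-deficient cells too. Of 13 tested other family members 3 rose and 1 fell. The 3 were Bcl2a1d (0.88 ± 0.11), Bcl2a1a (0.78 ± 0.13) and Bcl2a1b (0.54 ± 0.07), copies of the guard gene A1 so alike that the counting may have split reads between them. Upstream regulators fell in 4 and rose in 1 of 12 cases. The FOXO genes Foxo3 (-0.63 ± 0.08, edgeR adjusted p = 0.000125) and Foxo1 (-0.33 ± 0.07, adjusted p = 0.00476) were lower, and the mitochondrial channel gene Vdac1 was higher (0.50 ± 0.06). A link of these genes to Bcl2l11 was not tested. Death receptor genes fell in 4 of 10 cases and rose in 0, with Tnfrsf1a (-0.44 ± 0.08), Tnfrsf10b (-0.40 ± 0.11) and Fas (-0.36 ± 0.10) lower, median -0.15 against 0.00072 over all genes. Of apoptosome and caspase genes 3 rose and 2 fell of 14, of inhibitor of apoptosis genes 1 rose and 2 fell of 6, of p53 targets 3 rose and 3 fell of 11, and of receptors 1 of 6 fell, Il4ra (-0.38 ± 0.07).

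Control Treg cells were compared with naive cells and with TGFb cultures, which share the 4 control libraries. In both comparisons age (3 against 5 to 6 weeks), floxed alleles, sex-linked RNA and sorting or culture differ along with the cell type, and these cannot be told apart. Against naive cells 6 of 9 genes were higher and 0 lower, where 54.9% of all genes passed, 28.6% higher and 26.3% lower. Pmaip1 was at 24.9, 20, 20.2 and 18.5 CPM in control Treg against 1.31 and 0.895 CPM in naive libraries (18.6-fold, 4.21 ± 0.25, edgeR adjusted p = 2.18e-07). Bcl2l1 was at 98.4, 115, 119 and 111 against 24.9 and 26.5 CPM (4.27-fold, 2.09 ± 0.12). Bid was at 57.4, 46.6, 57.4 and 45.6 against 24.3 and 26.8 CPM (2.01-fold, 1.00 ± 0.13), and Bcl2l11 at 171, 151, 147 and 160 against 87.6 and 83.4 CPM (1.82-fold, 0.87 ± 0.09). These 4 genes, and Bak1 and Bax, did not overlap between the groups, and neither did 68.3% of all genes tested. Bak1 (0.51 ± 0.10) and Bax (0.43 ± 0.09) were higher by less, and Bcl2 (0.05 ± 0.10), Mcl1 (-0.23 ± 0.09, adjusted p = 0.0526) and Bbc3 (0.18 ± 0.20) did not pass. Mcl1 passed without control S2 (-0.30, adjusted p = 0.0178) and with all 20 libraries in the fit (0.0343).

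Against TGFb cultures 3 genes were higher and 3 lower in control Treg cells, where 61.4% of all genes passed, 32.3% higher and 29.1% lower. Bid (24 ± 1.67 CPM with TGFb, 2.13-fold, 1.09 ± 0.14), Bcl2l11 (84 ± 9.4 CPM, 1.85-fold, 0.89 ± 0.10) and Mcl1 (397 ± 29.5 CPM, 1.57-fold, 0.65 ± 0.10) were higher. Bcl2 was at 287, 237, 222 and 244 CPM against 459 and 427 CPM (1.81-fold lower, -0.85 ± 0.10, edgeR adjusted p = 5.18e-05). Bax was at 66.8, 64.7, 64.5 and 64.3 against 113 and 111 CPM (1.73-fold lower, -0.79 ± 0.08, adjusted p = 1.13e-05). Bcl2l1 (-0.27 ± 0.09, adjusted p = 0.0245) did not pass without TGFb replicate 1 (0.0926) or 2 (0.158), or in limma (0.0523). Bak1 (0.19 ± 0.09) passed without control S1 (0.23, adjusted p = 0.0374), in limma (0.0383) and with library totals (0.0429). Pmaip1, at 23.5 and 17.6 CPM with TGFb, overlapped with the control Treg libraries, at 18.5 to 24.9 CPM (0.01 ± 0.16). The 5 B cell markers summed to 45.6 to 110 CPM in control Treg, 2.3 to 3.13 in naive and 3.07 to 3.53 in TGFb libraries (Ms4a1 and Cd22 at 0). The 6 myeloid markers summed to 33.1 to 41.9, 9.07 to 10.2 and 2.51 to 3.45 CPM, and 3 of the 5 erythroid markers, those in the table, to 66.8 to 182, 0.219 to 0.56 (Hbb-b1 at 0) and 36.5 to 46.3 CPM. Their part in these differences was not tested.

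In the pathway lists 10 of 13 tested other family members were higher in control Treg than in naive cells and 0 lower. Their median was 1.67, against 0.01 over all genes, of which 28.6% passed as higher and 26.3% as lower. Bcl2l15 (4.42 ± 0.80), Bcl2a1a (3.17 ± 0.32) and Bcl2a1d (2.98 ± 0.19) led. The Bcl2a1 copies are so alike that the counting may have split reads between them, so 1 signal may count more than once. Apoptosome and caspase genes were higher in 8 and lower in 1 of 14 cases. The p53 targets were higher in 7 and lower in 0 of 11. Inhibitor of apoptosis genes were higher in 4 and lower in 2 of 6. The death receptor list had 5 higher and 2 lower of 10, and the receptors 2 higher and 2 lower of 6. Against TGFb cultures Cdkn1a was lower (-4.55 ± 0.15) with 4 more of 11 p53 targets and 1 higher. Birc3 was higher (1.67 ± 0.13) with 3 more of 6 inhibitor of apoptosis genes and 1 lower. There the other family members were higher in 8 and lower in 4 of 13 cases, and apoptosome and caspase genes in 4 and 2 of 14. The death receptor list had 2 higher and 4 lower of 10, and the receptors 2 higher and 1 lower of 6. Over all genes 32.3% passed as higher and 29.1% as lower. Upstream regulators were higher in 2 and lower in 2 of 12 cases against naive cells, and higher in 5 and lower in 3 against TGFb cultures. Foxo1 was lower than in naive cells (-0.50 ± 0.11) and higher than in TGFb cultures (1.11 ± 0.11).

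The second table compares Foxp3- cells after restimulation with Foxp3+ day 6 iTreg cells (n = 3 and 3), so restimulation, the time it adds and the Foxp3 state of the sorted cells cannot be told apart. Of the 9 genes 6 were higher and 1 lower, where 68.8% of all 11252 genes tested passed, 33.6% higher and 35.2% lower. Bcl2l11 was at 43.9, 45.1 and 42.2 CPM in day 6 and 214, 197 and 231 CPM in restimulated libraries, 4.88-fold higher (2.29 ± 0.07, edgeR adjusted p = 4.4e-13). Bbc3 was at 22.8, 22 and 24.5 against 53, 50.4 and 54.5 CPM, 2.28-fold higher (1.19 ± 0.07, adjusted p = 1.08e-09). These and 5 more of the 9 genes did not overlap between the groups, and neither did 72.8% of all genes tested. Mcl1 rose from 305, 314 and 313 to 468, 459 and 494 CPM (1.52-fold, 0.61 ± 0.05, adjusted p = 7.8e-08). Bcl2 rose from 605, 612 and 599 to 713, 683 and 790 CPM (1.2-fold, 0.27 ± 0.06), and Bcl2l1 from 114, 98.7 and 101 to 126, 125 and 116 CPM (1.17-fold, 0.23 ± 0.06). All 3 guards rose, with smaller fold changes than Bcl2l11 and Bbc3. Bak1 rose from 88, 84.6 and 86.6 to 100.4, 97.2 and 92.9 CPM (0.16 ± 0.06, adjusted p = 0.0158), a call lost without day 6 replicate 2 (0.0582) or restimulated replicate 1 (0.086). Pmaip1 fell from 25.5, 22.4 and 22.8 to 17.7, 17.5 and 16 CPM (1.38-fold, -0.47 ± 0.09, adjusted p = 0.000214). Bax (-0.03 ± 0.06) and Bid (-0.15 ± 0.09) did not pass, and their groups overlapped.

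**Figure D5:**
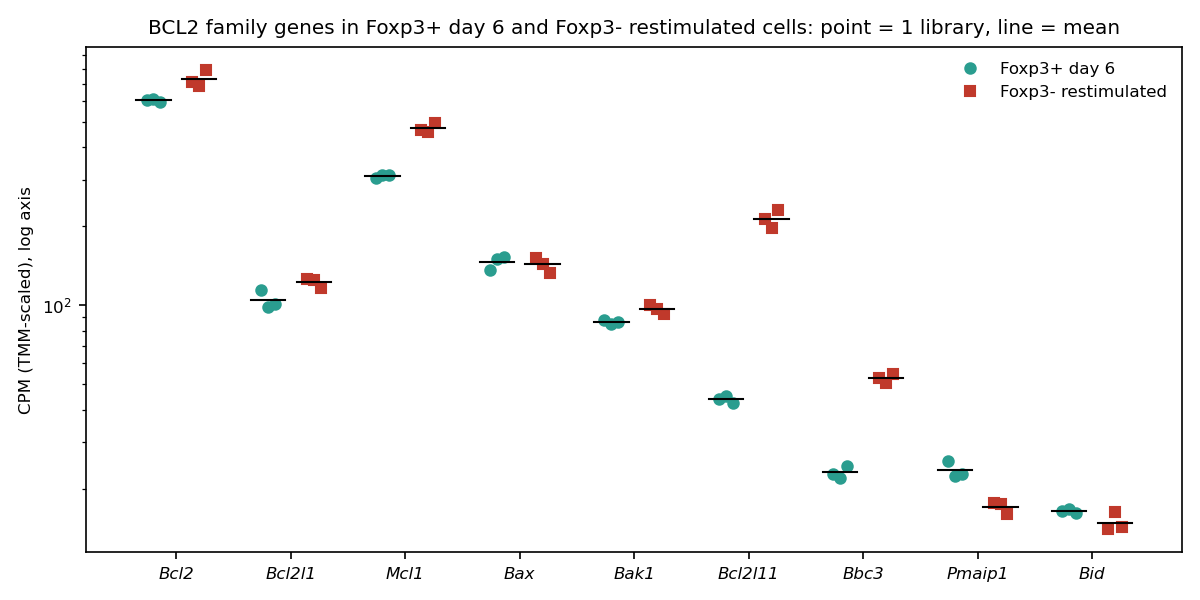
Level of each gene in the 6 libraries of the second table (vertical log axis, CPM on TMM-scaled totals), with a line at each group mean. Bcl2l11 stands at 42.2 to 45.1 CPM in day 6 and 197 to 231 CPM in restimulated libraries, and Bax overlaps.

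The ratio of Bcl2 to Bcl2l11 FPKM was 13.8, 13.6 and 14.2 in day 6 libraries and 3.35, 3.47 and 3.43 in restimulated ones, and the summed FPKM of the 9 genes was 368 ± 2.04 against 495 ± 10.9 (n = 3). These sums carry no TMM scaling, and the factors were 0.962 to 0.99 in day 6 and 1.02 to 1.03 in restimulated libraries. Among upstream regulators 4 rose and 5 fell of 12. Foxo1 (1.25 ± 0.06) and Foxo3 (0.89 ± 0.09) were higher, and Ddit3, the gene of the stress factor CHOP, was lower (-1.04 ± 0.12). A link of these genes to Bcl2l11 or Bbc3 was not tested. Of 12 tested other family members 7 fell and 2 rose (median -0.72, -0.01 over all genes), with Bnip3 (-3.23 ± 0.06) and Bcl2l14 (-4.50 ± 0.70) lower. Apoptosome and caspase genes rose in 5 and fell in 7 of 14 cases, Apaf1 up (1.02 ± 0.06) and Diablo (-0.89 ± 0.07) and Casp8 (-0.84 ± 0.05) down. Naip2 (1.87 ± 0.08) and Xiap (0.94 ± 0.06), inhibitors of apoptosis, rose with 1 more of their 6, and 2 fell. Fasl rose (1.27 ± 0.14) and its receptor gene Fas fell (-0.90 ± 0.09), with 4 up and 3 down of 10 in the death receptor list. Of the survival receptors 3 rose and 2 fell of 6, with Il2ra lower (-2.22 ± 0.06) and Il7r higher (1.7 ± 0.29). Of p53 targets 4 rose and 4 fell of 11. The 4 NK cell markers summed to 0.326 to 0.362 CPM in day 6 and 10.4 to 12.3 CPM in restimulated libraries, with Ncr1 at 0 in all. Of 5 erythroid markers the 3 in the table summed to 37.4 to 66.2 against 0.185 to 0.259 CPM, with Hbb-b1 at 0 in the latter. Their part in these differences was not tested.

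Across the 20 libraries of the first table, the genes whose log2 CPM followed each of the 9 most closely were, for Bcl2l1, Plscr1, Lrrc32 and the IL-2 receptor gene Il2ra (Pearson r = 0.986, 0.977 and 0.975). For Pmaip1 they were the IL-2 receptor gene Il2rb (0.977), Myadm and Myo1f. Bcl2l11 was closest to Penk (0.963), Fn1 and Lactb, and Bid to Srgn (0.975), Gm5424 and the Y-linked Ddx3y (0.97). Mcl1 was closest to Btg1 (0.964), Dnajb4 and Usp47, Bcl2 to Seh1l (0.963), Pcsk4 and AA467197, Bax to Nans (0.976), Ap2s1 and Vps36, and Bak1 to Rpia (0.941), Ssr2 and Faap24. Bbc3 had the weakest likeness, to Slc7a1 (0.84), Ddr1 and Sytl2. These correlations describe 8 groups of 2 to 4 libraries each, so the 20 points are not independent, and no test was made on them.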

How the data were processed

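Per the labels' protocols, RNA was extracted with RNeasy Plus and libraries were made with a stranded TruSeq mRNA kit. The submitters' processing notes name the mouse build mm9. They also name TopHat2 2.1.1, Trim Galore 0.4.2, edgeR 3.26.6 in R 3.6.1, Picard 2.5.0, bcl2fastq 2.20.0.442 and SAMtools 1.7. How and against which annotation reads were counted, and whether strand was used, is not given in the sources used here. The deposited tables hold whole read counts per gene, summed over its exons, for 21761 genes, of which 92 lack a symbol. The FPKM tables that the authors deposited equal count over library total and exon length, with no composition scaling. The deposited RPM tables were left out.

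Groups come from the labels and column names. Counts were tested in R 4.3.3 with edgeR 4.0.16 (TMM factors, filterByExpr, robust quasi-likelihood, 2-sided), with Benjamini-Hochberg adjustment over all genes tested and a threshold of 0.05. The 12 naive and cultured libraries shared a fit with 6 residual degrees of freedom. Other comparisons used their own libraries, with 6 for the Tet2/3-deficient cells and 4 otherwise. The SE is the log2 fold change over the square root of F. Means and SDs are of CPM on TMM-scaled totals. Total counts were 9647669 to 17672302 per library in the first table and 11293704 to 17219805 in the second.

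The 9 genes and the 7 pathway lists were chosen with earlier results of these data known. The naming rule took all 9 genes in 13 comparisons, and for each pathway list its counts and at most 3 called genes with the largest change. Likeness is the Pearson correlation of log2 CPM (prior count 1) among genes with a mean of at least 10 CPM. Other settings were RLE factors, DESeq2 1.42.0, a fit with no count filter, limma 3.58.1 on log2(FPKM + 1), a replicate block, fits on more or fewer groups, and each library left out once. Library totals with no scaling factor, and leaving out control S1 and S3, were added after seeing the data. The test was checked on simulated counts. No replicate was a copy of another (chi-square over its degrees of freedom 2.29 to 23.6). Promoter sequences are RefSeq windows of GRCm38.p6, of which the 250 bases before the start were searched. Some genes are not reported here.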

Additional observations from a re-analysis of the deposited data

Results flagged for a closer look

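In groups of 4 libraries, the highest or lowest value was set against its distance to the nearest other library. This was done for the 9 genes in both ex vivo Treg groups, 18 groups in all, and chance flags about 1 in 20 of such groups. Bcl2 in the Tet2/3-deficient library S5, at 258.6 CPM, stood apart from the other 3, at 190 to 202 CPM. Without S5 the fall of Bcl2 in the Tet2/3-deficient cells passed the test, as given with that comparison. Bax in the control library S1, at 66.84 CPM, stood apart from the other 3, at 64.3 to 64.7 CPM, in a group whose whole range was 2.5 CPM.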

How the results depend on the processing

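Bcl2l11 and Bcl2l1 in Tet2/3-deficient cells, and Bcl2l11, Bbc3, Mcl1 and Pmaip1 after restimulation, kept their direction and side of the threshold under every setting run. Counts of the 9 genes that passed changed as follows. The number of all genes that passed changed too with a library left out, so a changed count is not particular to the 9. It was lower in every such fit for TGFb against Th0, for vitamin C, and for both supplements against vitamin C. For TGFb against Th0 the count was 5, 3 with all 20 libraries in the fit, and 2 to 4 with a library left out. For vitamin C it was 2, and 0 to 3 with a library left out. For retinoic acid it was 3, 1 with only the groups compared or with all 20 libraries, and 0 to 3 with a library left out. For both supplements against retinoic acid it was 0, 2 with no count filter, and 0 to 1 with a library left out. Against vitamin C it was 4, and 0 to 3 with a library left out. For Tet2/3-deficient cells it was 2, 4 with limma or with library totals, and 2 to 5 with a library left out. Over all genes tested there, 3800 passed with all libraries and 2831 to 4141 with a library left out. Library totals moved the median of all genes by 0.14 (log2) for control Treg against naive cells, where the share of higher calls went from 52.1% to 66%.

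No label says what a replicate number stands for. Same-numbered libraries had correlated deviations among the 4 TGFb cultures (r 0.203 to 0.379, 6 of 6 over 0.1). The range was 0.0122 to 0.0914 where naive or Th0 cells entered (0 of 9 over 0.1), and 0.0757 to 0.184 in the second table (1 of 3). A replicate block gave 5 for vitamin C and 3 for both supplements against retinoic acid (Bax 0.0312, Bcl2l11 0.00302 and Bbc3 0.0167, adjusted p). It gave 7 for Th0 and 5 for both supplements against vitamin C, and the number without the block elsewhere. The shares of all genes that passed with the block are not given here. No paired analysis was possible for the ex vivo columns because their numbers match no sample.

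In 20 pairs of gene and comparison, 0 of which passed, the log2 fold change turned sign, and the cause was not tested. With limma and library totals it was 0.00487 and 0.00424 for Bid with vitamin C, 0.023 and 0.0251 for Bid with both supplements, 0.0221 and 0.00938 for Bbc3 in Tet2/3-deficient cells, and 0.044 and 0.0431 for Bax after restimulation. For Bax, vitamin C against retinoic acid, it was 0.0134 (DESeq2), 0.0146 (RLE, and all 20 libraries), 0.0105 (limma), 0.0044 (only groups compared) and 0.00376 (library totals). Without control S1 and S3 it was 0.048 for Bbc3 in Tet2/3-deficient cells and -0.107 for Pmaip1, control Treg against TGFb, which was -0.00508 with DESeq2 and -0.00557 with RLE. With a library left out, ranges crossing 0 were, for Bbc3, -0.565 to 0.0126 (TGFb against Th0), -0.52 to 0.0559 (retinoic acid), -0.506 to 0.069 (interaction), -0.108 to 0.111 (Tet2/3-deficient), -0.0353 to 0.449 (control Treg against naive) and -0.182 to 0.401 (against TGFb). For Bid they were -0.0931 to 0.0562 (vitamin C), -0.0800 to 0.0682 (both) and -0.0258 to 0.0498 (both against vitamin C), where Mcl1 ran from -0.0646 to 0.0106. For vitamin C against retinoic acid they were -0.166 to 0.0256 (Bcl2l1), -0.148 to 0.163 (Bax), -0.0676 to 0.29 (Bcl2l11) and -0.105 to 0.0405 (Pmaip1). For the interaction they were -0.0138 to 0.298 (Bax), -0.132 to 0.111 (Bak1) and -0.0681 to 0.337 (Pmaip1). Bcl2 in control Treg against naive cells ran from -0.0201 to 0.119, Pmaip1 against TGFb from -0.182 to 0.231, and Bax after restimulation from -0.0761 to 0.0175. With 2 libraries a group, changes of the size seen for Bcl2l1 with TGFb (0.25) sit at the limit of what these libraries show.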
